A study of Mus musculus with 125 samples.

Results

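Open chromatin of nuclei labelled retina endothelial was compared with that of nuclei of the whole retina, within adult mice and within young mice labelled P6. The comparison uses 10 of the 66 ATAC-seq samples of the series, which also holds 54 RNA-seq and 5 single-cell samples. The 10 were chosen by their titles: 2 endothelial and 2 input libraries of adult retina, and 3 endothelial and 3 input libraries of P6 retina. Each is an ATAC-seq library, in which a transposase cuts accessible DNA and cut sites pile up into peaks, and each has its own deposited list of peaks. A further 42 ATAC-seq libraries of brain, heart, kidney, liver and lung of the same ages serve as an outside reference.

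All 4 groups come from mice in which tamoxifen turns on a green fluorescent protein in vessels. The driver of this switch, the strain and the genotype are not given in the sources used here, and neither is the step that separated the labelled nuclei. Adult mice of 2 months received 0.015 mg/kg tamoxifen into the abdomen 7 days before collection. The group labelled P6 received the same dose under the skin on postnatal days 1 and 3, and the protocol places its collection on day 7. Input nuclei were prepared from the whole tissue of such mice without separation. Nothing in the labels says whether replicates are separate animals, so the p-values measure only the spread between these samples.

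Retinal vessels are lined by endothelial cells that form the blood-retina barrier, with tight junctions, transporters and Wnt signalling through the Norrin receptor. In the mouse the superficial vessel network spreads over the retina in the first week after birth, so growing vessels are sampled in the younger group and mature ones in the adult. Endothelial cells are a small minority in the retina, where rod photoreceptors are by far the most abundant cell and carry a distinct set of open regions near genes such as Nrl.

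For each age every library kept the same number of its strongest peaks, ranked by the −log10 q that the authors' peak caller gave them. This number was the length of the shortest list of that age, 32560 peaks at adult and 79426 at P6. Kept peaks that overlapped between libraries were merged into regions. A region is called endothelial-only when at least 2 endothelial libraries and 0 input libraries had a kept peak in it, input-only in the reverse case, and shared when at least 1 library of each side had one. These calls are counts with no test, since a peak is either kept or not.

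The libraries differed in ways that touch these calls. The adult lists held 43149 and 45276 peaks in endothelial 1 and 2 and 32560 and 82301 in input 1 and 2, so the last peak kept had a −log10 q of 3.84, 3.89, 1.00 and 8.54. The P6 lists held 79426 to 101390 peaks, with a last kept −log10 q between 1.00 and 2.74. Tags kept by the peak caller numbered 14.0 to 34.6 M per library. Per the file headers, the reads of adult input 1 came from a file named by another scheme than those of the other 9 libraries.

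One library stood apart from its label. By the Jaccard index, the bases 2 peak sets share divided by the bases either covers, the top 27160 peaks of the library labelled P6 retina input 2 matched those of P6 brain inputs 1, 2 and 3 at 0.34, 0.71 and 0.63. With the other P6 retina inputs the index was 0.43 and 0.41. No other P6 retina library exceeded 0.43 with any brain input. Of 12 genes of retinal development and photoreceptors, listed after this similarity was seen, that library had a kept peak within 5 kb of 9, with 17 peaks in all. Crx and Six6 were among the genes without one. The other 5 P6 retina libraries had peaks at all 12, with 52 to 59 peaks, and the P6 brain inputs at 8 to 10, with 12 to 21 peaks. On 12 forebrain genes listed at the same time it did not stand apart, with peaks at all 12 and 39 in all, as retina inputs 1 and 3 also had peaks at all 12, with 35 and 41. P6 counts of regions and genes, and P6 tests, are therefore given with this library and without it; without it, an input-only region needs both remaining inputs.

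**Figure D1:**
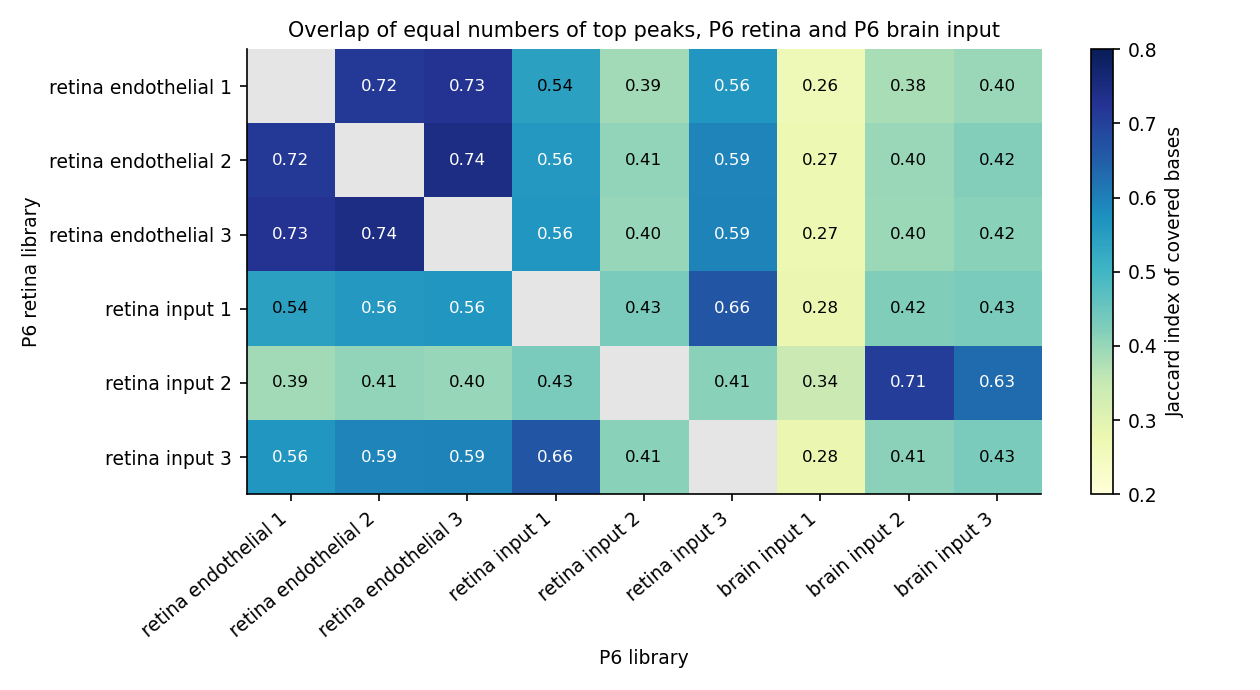
Jaccard index of covered bases for the top 27160 peaks of each P6 retina library (rows) against the P6 retina and P6 brain input libraries (columns), on a colour scale from 0.2 to 0.8. The row of the library labelled retina input 2 is darkest at brain inputs 2 and 3 (0.71 and 0.63), while the 3 endothelial libraries match each other at 0.72 to 0.74.

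Promoters of both kinds are shown in sequence, chosen for the motif they hold. Of 10 endothelial genes with an annotated start in an adult endothelial-only region, 4 had the ETS factor letters described below in that promoter, and these 4 are given as the 250 bases before the start. The promoters of Adgrl4, Cldn5, Clec14a, Flt1, Kdr and Tie1 did not hold them. Egfl7 encodes a protein secreted by endothelium, Robo4 an endothelial receptor of the Roundabout family, Erg an ETS transcription factor and Cd34 a sialomucin of endothelial and blood progenitor cells. At P6 the promoters of Egfl7 and Robo4 were again endothelial-only, while those of Erg and Cd34 counted as shared over all 6 libraries and as endothelial-only without the library labelled P6 retina input 2. Capitals mark the letters CAGGAAG of an ETS factor motif on either strand. The sequences are from RefSeq on GRCm38.p6, written 5′ to 3′ on the strand of the gene.
Egfl7, chr2:26583615-26583864 plus strand: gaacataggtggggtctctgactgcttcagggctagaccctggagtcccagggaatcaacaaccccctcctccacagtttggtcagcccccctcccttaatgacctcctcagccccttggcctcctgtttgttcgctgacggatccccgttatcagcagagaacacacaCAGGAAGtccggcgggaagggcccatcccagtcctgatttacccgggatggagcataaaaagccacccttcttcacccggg
Robo4, chr9:37401722-37401971 plus strand: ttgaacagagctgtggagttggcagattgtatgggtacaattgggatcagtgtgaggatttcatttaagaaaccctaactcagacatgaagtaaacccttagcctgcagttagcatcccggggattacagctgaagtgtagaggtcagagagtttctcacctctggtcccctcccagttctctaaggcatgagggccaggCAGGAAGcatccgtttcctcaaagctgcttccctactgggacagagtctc
Erg, chr16:95459349-95459598 minus strand: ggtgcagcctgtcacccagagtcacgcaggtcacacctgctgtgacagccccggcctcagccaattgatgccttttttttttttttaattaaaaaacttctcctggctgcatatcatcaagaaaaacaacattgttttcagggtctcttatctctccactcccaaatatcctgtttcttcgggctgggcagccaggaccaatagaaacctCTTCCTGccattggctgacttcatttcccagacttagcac
Cd34, chr1:194938571-194938820 plus strand: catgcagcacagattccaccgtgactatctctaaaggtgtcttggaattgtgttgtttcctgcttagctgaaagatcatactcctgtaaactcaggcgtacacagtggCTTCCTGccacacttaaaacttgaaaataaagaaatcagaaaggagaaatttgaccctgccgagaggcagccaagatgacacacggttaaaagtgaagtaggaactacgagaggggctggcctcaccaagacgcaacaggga

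The next 3 are promoters of rod genes. All 20 rod genes with a start in the promoter table had it in a region that every adult library held, endothelial and input alike, and that was shared at P6. Of the 17470 genes counted there, 48.8% had a start in such an adult region, and so did all 10 ubiquitous control genes with a start there. These 3 are shown because they were the only ones of the 20 to hold the letters below. Cngb1 encodes a subunit of the rod cyclic nucleotide-gated channel, Guca1a a guanylate cyclase activator and Rpgrip1 a protein of the photoreceptor connecting cilium. Capitals mark the letters CTAATCC, a motif of the homeodomain factors CRX and OTX2, on either strand.
Cngb1, chr8:95306586-95306835 minus strand: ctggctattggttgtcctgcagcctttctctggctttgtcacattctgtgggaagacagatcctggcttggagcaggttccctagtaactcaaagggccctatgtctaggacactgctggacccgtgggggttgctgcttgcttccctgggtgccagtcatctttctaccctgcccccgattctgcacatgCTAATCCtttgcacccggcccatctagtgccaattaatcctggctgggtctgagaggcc
Guca1a, chr17:47400607-47400856 minus strand: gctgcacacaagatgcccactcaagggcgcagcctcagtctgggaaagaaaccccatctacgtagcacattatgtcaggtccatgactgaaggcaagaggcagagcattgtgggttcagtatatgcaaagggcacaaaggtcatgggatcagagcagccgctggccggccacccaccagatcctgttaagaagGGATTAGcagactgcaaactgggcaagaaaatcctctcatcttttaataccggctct
Rpgrip1, chr14:52110653-52110902 plus strand: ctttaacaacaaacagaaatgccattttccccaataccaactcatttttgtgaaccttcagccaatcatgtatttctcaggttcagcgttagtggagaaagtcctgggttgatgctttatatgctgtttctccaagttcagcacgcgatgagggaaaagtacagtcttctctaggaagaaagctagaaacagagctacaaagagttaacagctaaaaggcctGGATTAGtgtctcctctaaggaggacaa

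Among all 21238 promoters of the RefSeq table, each from 250 bases before to 50 after a start, 12.5% held the ETS letters. The share was 18.8% of the 192 promoters in an adult endothelial-only region, 10.8% of those in a shared region and 5.00% of the 40 in an input-only region. At P6 it was 26.7% of 202 endothelial-only promoters and 9.70% of 134 input-only promoters, and without the library labelled P6 retina input 2 it was 27.9% of 341 and 4.65% of 86. The letters TGANTCA, bound by AP-1 factors, stood in 6.99% of all promoters and in 10.9% of the adult and 9.90% of the P6 endothelial-only ones, or 13.2% without the library labelled P6 retina input 2. Of input-only promoters 0% at adult and 5.97% at P6 held them, or 8.14% without that library. Of shared ones 3.65 and 4.24% did. The CRX and OTX letters stood in 1.94% of all promoters, in 3.12% of the adult and 2.97% of the P6 endothelial-only ones (2.64% without that library) and in 2.07% of those shared at adult. The SOX letters CATTGT did not follow 1 direction, with 11.0% of all promoters, 5.73% of adult endothelial-only and 14.4% of P6 endothelial-only ones, or 13.2% without that library. Of input-only promoters 15.0% at adult and 12.7% at P6 held them, or 15.1% without that library. Of shared ones 6.26 and 6.53% did. The other 4 motifs searched were FOX (TGTTTAC), TCF/LEF (CTTTGAT), NRL (TGCTGAC) and bHLH (CAGATGG). Their shares were 3.0, 3.22, 4.30 and 4.28% of all promoters, and 4.69, 3.12, 2.08 and 5.21% of the adult and 3.96, 1.98, 3.96 and 6.93% of the P6 endothelial-only ones, or 4.40, 2.64, 4.11 and 5.28% without that library. Each was sought on both strands, none contains another, and a match is a description of the sequence only.

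At adult 46041 regions were formed, of which 1597 (3.47%) were endothelial-only and 1030 (2.24%) input-only. Shared regions made up 66.5%, and 22515 regions were in every library. At P6 there were 150844 regions, with 15116 (10.0%) endothelial-only, 12003 (7.96%) input-only and 48.1% shared. Leaving out the library labelled P6 retina input 2 gave 124200 regions, with 19212 (15.5%) endothelial-only, 8273 (6.66%) input-only and 54.0% shared. More regions were found on the endothelial side alone than on the input side alone at both ages with these settings, but the order depended on the threshold. At adult it turned with the top 20000 peaks, to 484 endothelial-only and 509 input-only regions, and with a −log10 q of at least 5, to 583 and 625. At P6 it turned at that −log10 q, to 8578 and 8913, but not with the top 20000 peaks, at 2930 and 2288. Leaving out adult endothelial 1, endothelial 2, input 1 or input 2, where a peak in the 1 remaining library of that side is enough, gave 3285, 6061, 2528 and 2854 adult endothelial-only and 1580, 3089, 4389 and 4378 input-only regions, so input-only regions were more numerous without either adult input. At P6 leaving out input 1 or input 3, which keeps the library labelled P6 retina input 2 as 1 of 2 inputs, gave 4030 and 4801 input-only regions. Leaving out P6 endothelial 1, 2 or 3 turned the order as well, with 11722, 12102 and 11931 endothelial-only and 14072, 14273 and 14407 input-only regions. In bulk preparations, fewer endothelial nuclei and less open chromatin per nucleus cannot be told apart.

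**Figure D2:**
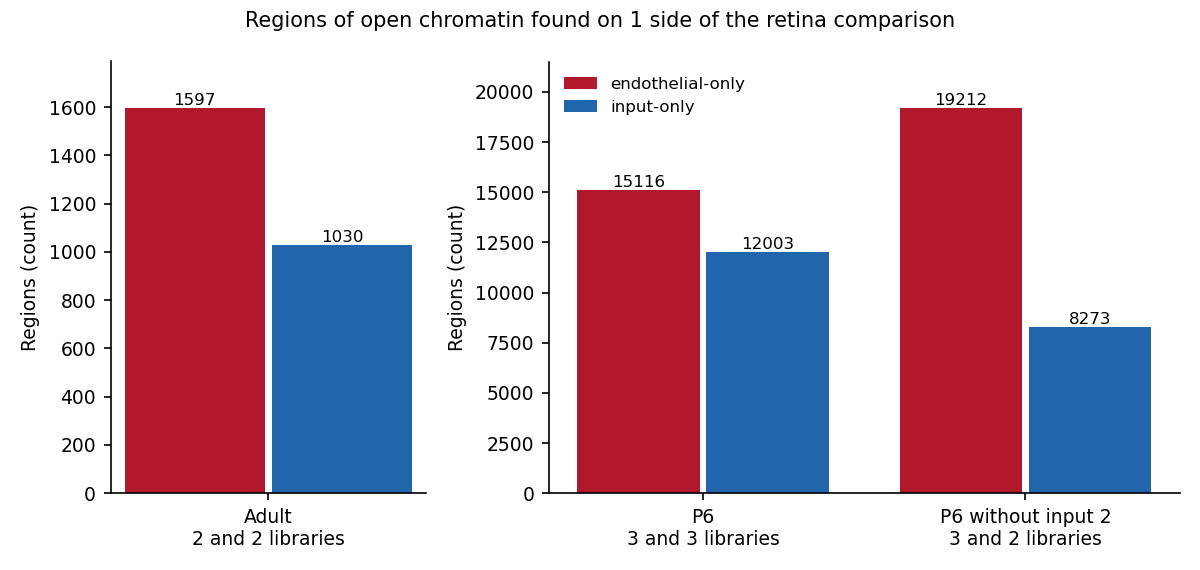
Number of regions found in at least 2 libraries of 1 side and none of the other (y axis, count) at adult, at P6 and at P6 without the library labelled retina input 2, with separate y scales for the ages. Endothelial-only regions outnumber input-only ones in each panel, by 1597 to 1030 at adult and by 15116 to 12003 at P6, an order that turned with a −log10 q of at least 5.

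The counts at the 2 ages are not comparable with each other, since 2 of 2 libraries are needed at adult and 2 of 3 at P6, from lists of different length. At P6 10254 endothelial-only regions were in all 3 endothelial libraries, while 2527 input-only regions were in all 3 inputs. Leaving out the library labelled P6 retina input 2, 13517 endothelial-only regions were in all 3 endothelial libraries and 8273 input-only regions in both inputs. Being absent among the kept peaks is also a matter of rank. Of the adult endothelial-only regions, 49.5% had a weaker peak in the whole list of adult input 2 and none in that of input 1, which was kept whole. Of the adult input-only regions, 73.5% had a weaker peak in an endothelial list, 40.8% in endothelial 1 and 65.4% in endothelial 2. At P6 a weaker peak on the other side was seen for 16.5% of endothelial-only and 23.3% of input-only regions, and without the library labelled P6 retina input 2 for 5.04% and 25.8%.

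Endothelial-only regions lay mostly away from gene starts. At adult 11.4% of them overlapped the 500 bases on either side of a protein-coding start, against 3.98% of input-only and 28.2% of shared regions. At P6 the shares were 1.55%, 1.30% and 15.0%, and without the library labelled P6 retina input 2 they were 1.96%, 1.15% and 16%. The median distance to the nearer boundary of a gene model was 18.3 kb for adult endothelial-only, 26.9 kb for input-only and 6.11 kb for shared regions. At P6 it was 27.3, 41.0 and 15.7 kb, and without that library 27.3, 43.0 and 14.7 kb. Within genes lay 54.4% of adult and 55.8% of P6 endothelial-only regions, or 55.3% without that library.

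Over whole libraries the share of kept peaks at gene starts was 27.3 and 26.8% in adult endothelial, 26.5 and 26.2% in adult input, 13.8, 13.8 and 13.7% in P6 endothelial and 13.5, 13.3 and 13.6% in P6 input. No endothelial library overlapped the inputs of its age. The difference was 0.736 percentage points at adult and 0.286 at P6, with a mean of 0.511 (exact 2-sided permutation of side within age, p = 0.0167, the smallest 120 arrangements allow). Without the library labelled P6 retina input 2 the mean was 0.467 (p = 0.0167, exact permutation). The call was lost without adult input 2, at 0.447 (p = 0.0833, exact permutation), and also with every deposited peak, at 1.26 (p = 0.8), or with peaks ranked by fold, at 1.24 (p = 0.317). The number of peaks called, endothelial minus input, was −13218 at adult and −1883 at P6 on average and did not pass (p = 0.733, exact 2-sided permutation). Without the library labelled P6 retina input 2 the P6 difference turned to 3153 more in endothelial lists and the mean over both ages was −5032 (p = 0.9, exact permutation). Without adult input 2 the mean over both ages turned to 4885 more in endothelial lists (p = 0.383, exact permutation).

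At P6 each endothelial library was closest to the other endothelial libraries, and at adult endothelial 2 was not. By the Jaccard index of kept peaks, the 3 P6 endothelial pairs scored 0.670, 0.679 and 0.691, P6 inputs 1 and 3 scored 0.639, and the pairs of these inputs with endothelial libraries 0.480 to 0.508. The library labelled P6 retina input 2 scored 0.344 to 0.356 with the endothelial libraries and 0.378 and 0.366 with the other inputs. At adult the endothelial pair scored 0.639, while endothelial 2 scored 0.621 and 0.648 with the inputs, endothelial 1 scored 0.565 and 0.559, and the input pair 0.546. The index of adult endothelial 2 with the other endothelial library thus lay between its values with the inputs.

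The mean index within a side minus that between sides was −0.0058 at adult and 0.123 at P6. Their mean of 0.0588 did not pass (exact 1-sided permutation within age, p = 0.0667, with a smallest possible p of 0.0333), and the difference between the ages did not pass either (p = 0.0667, exact permutation). Without the library labelled P6 retina input 2 the mean was 0.0845 (p = 0.0667, exact permutation). Without adult input 2 it was 0.0848, which passed (p = 0.0333, exact permutation).

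Libraries of other organs gave a measure of endothelial content that the retina calls did not use. A list of regions was formed that held a peak in the endothelium of all 5 other organs and in none of their inputs, 247 regions at adult and 765 at P6. This list was made after the adult libraries were seen to differ. Of the adult regions, 84.6% held a kept peak in adult endothelial 1, 29.1% in endothelial 2, 10.1% in input 1 and 11.7% in input 2. At P6 the shares were 94.0, 93.3 and 95.2% in the endothelial libraries, 10.3% and 11.5% in inputs 1 and 3, and 24.2% in the library labelled P6 retina input 2. Each endothelial library was above each input of its age. The mean difference over both ages was 62.4 percentage points (exact 2-sided permutation within age, p = 0.0167, the smallest possible), or 64.6 without the library labelled P6 retina input 2 (p = 0.0167, exact permutation). With every deposited peak of the other organs used to form the list it was 32.5 (p = 0.0167, exact permutation).

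**Figure D3:**
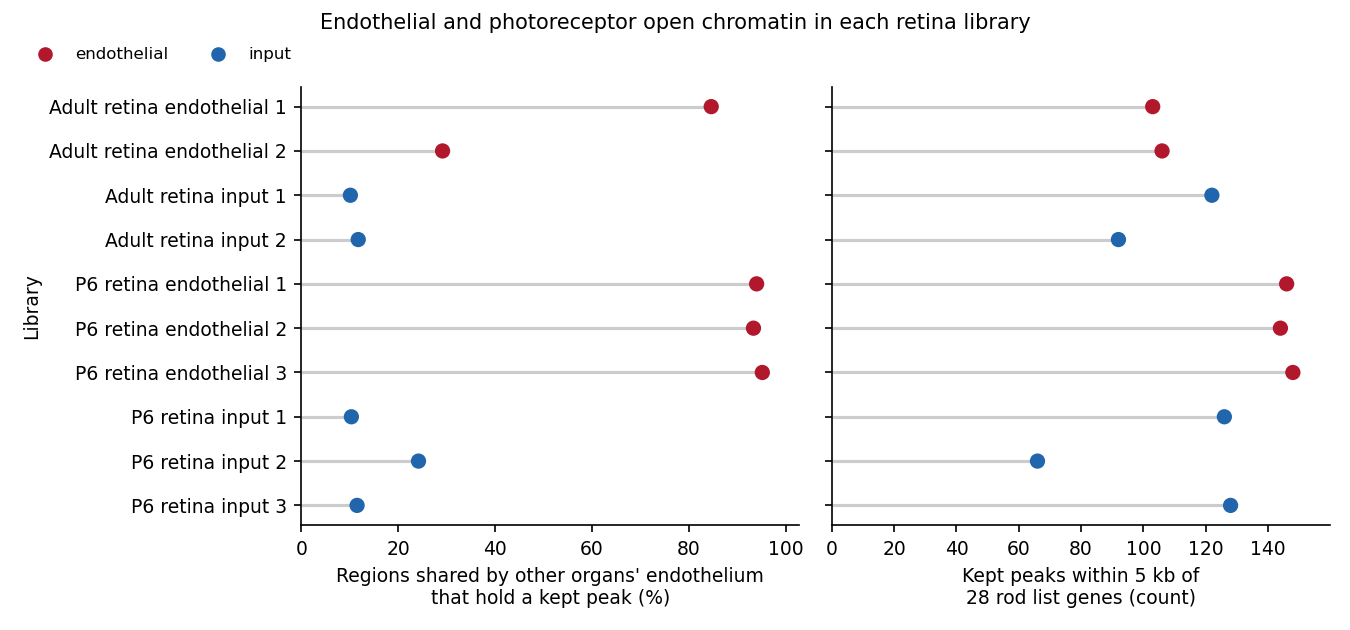
For each of the 10 retina libraries (rows), the percent of regions shared by the endothelium of 5 other organs that held a kept peak (left) and the number of kept peaks within 5 kb of 28 rod and general photoreceptor genes (right). Endothelial libraries (red) are at 29.1 to 95.2% on the left against 10.1 to 24.2% for inputs (blue), while on the right both colours overlap at adult.

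Genes that define endothelium were read at single loci. Cdh5, which encodes the junction protein VE-cadherin, had 3 and 1 kept peaks within 5 kb in adult endothelial 1 and 2 and 1 and 0 in the adult inputs, so the sides overlapped. At P6 Cdh5 had 9, 8 and 8 in the endothelial libraries and 1, 4 and 3 in inputs 1 to 3, with no overlap. It was nearest to 8 endothelial-only and 6 input-only regions at P6, or 10 and 3 without the library labelled P6 retina input 2. The adult endothelial-only region of Cdh5, at chr8:104101396-104101804 on mm10, was centred 13 bases outside the gene model, at its lower coordinate.

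Receptors of the vessel growth factors followed. Kdr, which encodes VEGF receptor 2, had 3 and 2 peaks in adult endothelial and 0 in both inputs, and at P6 8, 7 and 8 against 4, 3 and 4. One of its adult endothelial-only regions, chr5:75978111-75978759, lay at the gene start. Tek, which encodes the angiopoietin receptor Tie2, had 2 and 1 against 0 and 0 at adult and 10, 8 and 9 against 1, 2 and 1 at P6. For both genes every endothelial library was above every input. The best peak of Tek ranked at 22.5 and 58.6% of the kept peaks in adult endothelial 1 and 2, and at 10.1 to 13.6% in the P6 endothelial libraries against 46.5 to 92.2% in the P6 inputs.

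Pecam1, which encodes an adhesion protein of endothelial junctions, had 2 and 1 peaks in adult endothelial libraries and 1 and 1 in the inputs, and 9, 9 and 7 against 3, 4 and 4 at P6. It was nearest to 0 endothelial-only regions at adult and to 7 at P6, with or without the library labelled P6 retina input 2. Cldn5, which encodes the main claudin of barrier tight junctions, had 1 and 1 peaks against 0 and 0 at adult, where its start lay in the endothelial-only region chr16:18775809-18777275. At P6 Cldn5 had 1, 2 and 1 peaks against 0, 1 and 1, so the sides overlapped there in this window.

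Of 28 genes of the endothelial list, 23 were nearest to an endothelial-only region at adult and 1 to an input-only one. Over all 21887 protein-coding genes the shares were 5.86% and 4.30%. At P6 27 of 28 had an endothelial-only and 9 an input-only region, against 29.2% and 25.8% of all genes. Leaving out the library labelled P6 retina input 2 made these numbers 28 and 9, against 32.8% and 20.1%. The median over the list of endothelial-only minus input-only regions per gene was 1 at adult, 3 at P6 and 6.5 without that library, against 0 over all genes each time. Shared regions were nearest to 15 of the 28 at adult, against 63.1% of all genes. At P6 they were nearest to 28 of 28, against 76.2%, and without that library to 27 of 28, against 75.4%. Assigned by the nearest start in the promoter table, which has starts for 15 of the 28, the counts with an endothelial-only region were 14 at adult and 15 at P6. No share of all genes is given for that assignment. The best peaks of the list had a median rank of 42.7 to 65.2% of kept peaks in adult endothelial libraries. In the adult inputs, with a peak at 11 to 12 of the genes, it was 54.7 to 62.4%. In adult endothelium of other organs it was 10.0 to 31.9%, and for the rod list in adult retina endothelial libraries 12.5 to 18.1%. At P6 it was 19.7 to 21.7% in retina endothelial libraries and 36.0 to 38.2% in the inputs.

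At both ages 22 endothelial genes had an endothelial-only region, against 947 (4.33%) of all genes. They include the receptors Flt1, Tie1, Eng and Robo4, the transcription factors Erg, Fli1, Ets1, Tal1, Sox7 and Sox17, and the surface proteins Emcn, Esam, Ptprb, Cd34, Clec14a and Adgrl4. Vwf, which encodes a clotting factor carrier, and Egfl7 were also among them. Sox18 joined when the library labelled P6 retina input 2 was left out. Ets1 was the gene nearest to most adult endothelial-only regions, 6, and was nearest to 16 at P6, or 24 without that library, but it also had 1 and 5 input-only regions. At gene starts, of 15 genes of the list with a start in the table, 10 had an adult start in an endothelial-only region, 0 in an input-only and 0 in a shared region, against 0.990, 0.212 and 51.5% of all genes of the table. At P6 6 genes had a start in an endothelial-only and 10 in a shared region, against 1.10% and 62.6% of all genes. Without the library labelled P6 retina input 2 they were 11 and 5, against 1.81% and 61.9%; a gene with several starts can count in both.

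Genes of the blood-retina and blood-brain barrier also had endothelial-only regions. Of 23, 13 (56.5%) had an endothelial-only region at adult and 0 an input-only one, against 5.86% and 4.30% of all genes. At P6 18 (78.3%) had an endothelial-only and 11 (47.8%) an input-only region, against 29.2% and 25.8%, or 22 and 11 without the library labelled P6 retina input 2, against 32.8% and 20.1%. The P6 input-only count was 3 without P6 input 1 or input 3, against 12.8% and 14.3% of all genes, and 11 to 13 without any other library. Genes with an endothelial-only region at both ages included Slc2a1, Abcb1a, Abcg2, Foxq1, Foxf2, Lef1, Fzd4, Tspan12 and Cgnl1, with Slc16a1 and Lsr added without that library. Kept peaks within 5 kb of the list numbered 66 and 44 in adult endothelial 1 and 2, 36 and 29 in the adult inputs, 123, 119 and 119 in P6 endothelial libraries and 87, 83 and 80 in P6 inputs 1 to 3. Every endothelial library had more of them than any input of its age. Without adult endothelial 2 the adult count of genes was 21, against 16.1% of all genes. With only regions in the gene or within 5 kb of it the count was 8, for which no share of all genes is given.

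Members of the barrier list split by role. Among the transporters, Slc2a1, which carries glucose, had 5 and 6 peaks in adult endothelial libraries against 5 and 5, and 7, 8 and 9 against 9, 5 and 7 at P6, so the sides overlapped. Its adult endothelial-only region, chr4:119044093-119045132, lay between genes at a distance of 64133 bases from the gene. Mfsd2a, which carries lysophospholipids and limits transcytosis, had 2 and 2 peaks against 1 and 1 at adult, with its start in the endothelial-only region chr4:122960941-122961427. At P6 Mfsd2a had 4, 5 and 4 peaks against 4, 4 and 3 and 0 endothelial-only regions. Abcb1a and Abcg2 encode efflux pumps, and they had 2 and 1 adult endothelial-only regions and 5 and 3 at P6, or 7 and 4 without the library labelled P6 retina input 2. Their P6 input-only regions numbered 0 and 1, with or without that library.

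In the Wnt pathway, Lef1, a nuclear effector, had 5 and 2 peaks in adult endothelial libraries against 0 and 0. Its adult endothelial-only regions were chr3:131105808-131106279, between genes, and chr3:131221397-131221974, inside the gene. At P6 Lef1 had 10, 10 and 9 peaks against 9, 5 and 7 and was nearest to 12 endothelial-only and 6 input-only regions, or 13 and 6 without that library. Fzd4 and Tspan12, the Norrin receptor and its partner, each had 1 adult and 5 P6 endothelial-only regions, with or without it. They also had 1 and 2 P6 input-only regions, with or without it. The adult region of Tspan12, chr6:21851466-21852698, lay at a start of the gene, and that of Fzd4, chr7:89419030-89419327, between genes.

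Markers of vessel type were counted next. Of 20 arterial, venous and tip cell genes, 3 had an endothelial-only and 1 an input-only region at adult, which is 15.0% and 5.00% against 5.86% and 4.30% of all genes. The adult count of 3 became 14 without adult endothelial 2, against 16.1% of all genes, and 7 without input 2, against 10.4%. Without endothelial 1 or input 1 it was 4, against 11.9% and 9.19%. At P6 19 had an endothelial-only and 9 (45.0%) an input-only region, or 19 and 7 without the library labelled P6 retina input 2, against 29.2% and 25.8% of all genes, or 32.8% and 20.1%. The adult genes were Nrp1, a coreceptor of VEGF and semaphorins, Ephb4, a venous ephrin receptor, and Pdgfb, by which tip cells recruit pericytes, and each was also nearest to an endothelial-only region at P6. At P6 Nrp1 was nearest to 4 endothelial-only and 5 input-only regions, or 7 and 3 without the library labelled P6 retina input 2, Ephb4 to 2 and 0 and Pdgfb to 6 and 0, or 7 and 0. Whether the ages differ in these genes was not tested.

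**Figure D4:**
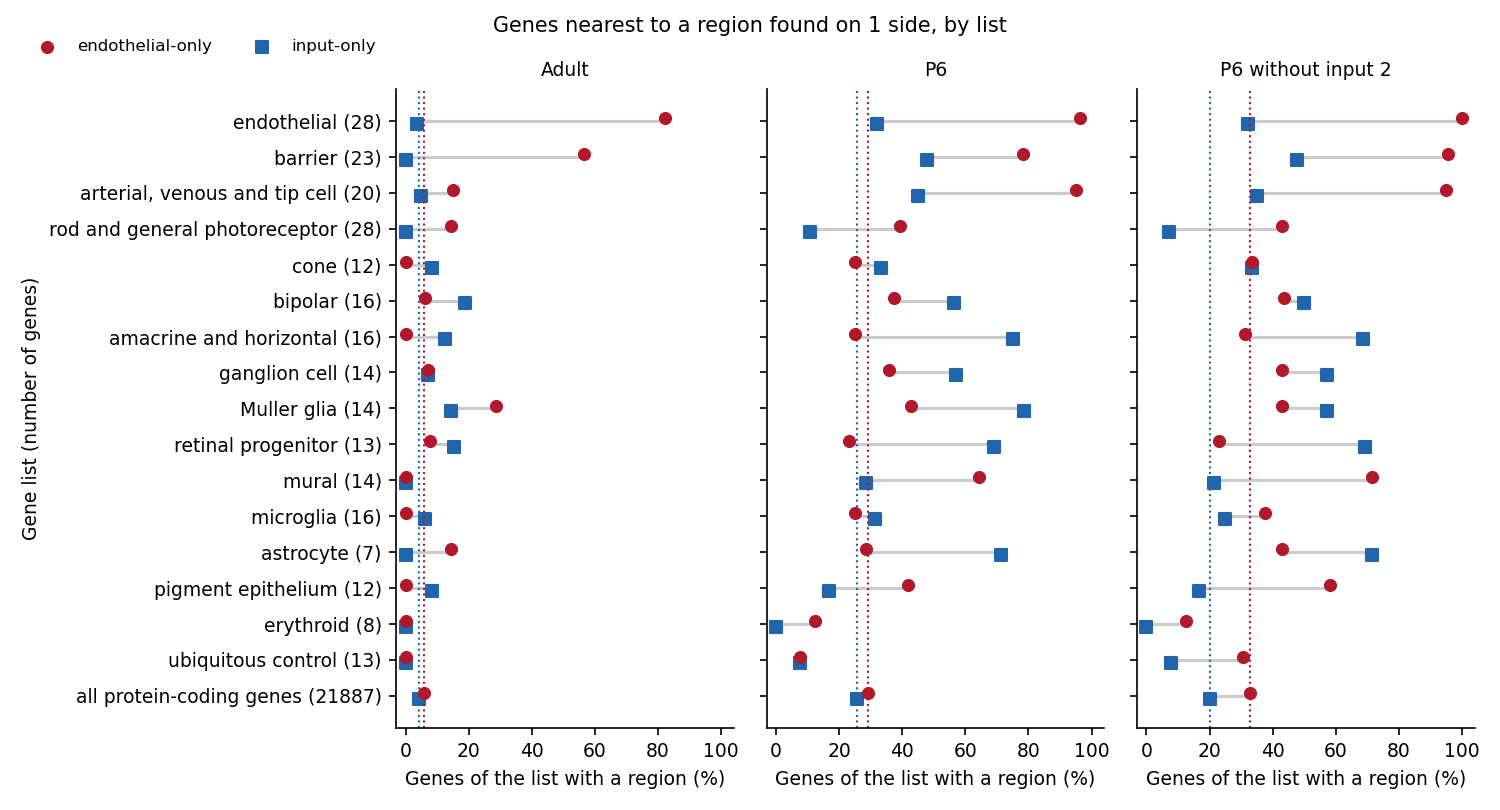
Percent of the genes of each list (rows, with the number of genes) that were nearest to at least 1 endothelial-only region (red circles) or input-only region (blue squares) at adult, P6 and P6 without the library labelled retina input 2; dotted lines mark all protein-coding genes. The endothelial list is farthest right at every age, with 23 of 28 genes at adult, while the rod list at adult has 4 of 28 genes with an endothelial-only and 0 with an input-only region.

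Peaks at photoreceptor genes were present on both sides, as were peaks at genes of other retinal cells. All 28 rod and general photoreceptor genes had a kept peak within 5 kb in every adult library, with 103 and 106 peaks in the endothelial libraries and 122 and 92 in the inputs. At P6 all 28 had one in the 3 endothelial libraries, with 146, 144 and 148 peaks, and in inputs 1 and 3, with 126 and 128. The library labelled P6 retina input 2 had peaks at 22 of the 28, with 66 peaks. In number of peaks the endothelial libraries were thus inside the range of the inputs at adult and above them at P6. All 13 ubiquitous control genes also had a peak in every retina library. No share of all genes is given for this window, so a full count of genes is not a trait of the rod list.

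As an outside reference, endothelial libraries of 5 other organs had a peak at 13.1 ± 2.69 of these genes at adult (SD, n = 10, range 8 to 17, with 14 to 31 peaks) and at 21.4 ± 1.86 at P6 (SD, n = 11, range 18 to 24, with 32 to 80 peaks). The inputs of those organs had a peak at 14.9 ± 2.1 (SD, n = 8) and 21.5 ± 2.18 (SD, n = 13). Those libraries kept at most as many peaks as the retina libraries, and as few as 19464 at adult and 27160 at P6 where a list was shorter. The retina endothelial libraries were above all of them at both ages, in genes and in peaks. The count of 22 genes in the library labelled P6 retina input 2 was inside the range of the other organs' inputs, 17 to 24. The share of retina endothelial nuclei that are photoreceptors cannot be read from these lists and was not estimated.

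The strength of the rod peaks was measured by rank. The median over the list of the best peak's rank was 12.5 and 18.1% of the kept peaks in adult endothelial libraries and 9.28 and 25.2% in the adult inputs, where 0% is the strongest. At P6 it was 8.74, 9.04 and 10.4% in endothelial libraries, 12.1 and 11.7% in inputs 1 and 3 and 30.7% in the library labelled P6 retina input 2. The endothelial medians thus lay between those of the inputs at adult, and at P6 all 3 were stronger than those of the inputs.

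Single photoreceptor genes were then read by library. Crx, the homeodomain factor of photoreceptors, had 4 and 4 peaks in adult endothelial libraries and 3 and 3 in the inputs. At P6 Crx had 4, 4 and 4 against 4, 0 and 3, the 0 being the library labelled P6 retina input 2. The adult endothelial libraries were thus above both inputs at Crx, and at P6 the sides overlapped. Nrl, the rod-determining leucine zipper factor, had 3 and 5 against 5 and 3 at adult and 6, 5 and 5 against 6, 2 and 5 at P6, overlapping at both ages.

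Nr2e3, a nuclear receptor that acts with Nrl, had 7 and 5 against 5 and 5 at adult and 7, 6 and 7 against 7, 1 and 6 at P6, where the sides overlapped. Sag, which encodes rod arrestin, had 2 and 2 peaks in adult endothelial libraries against 6 and 1 and 4, 4 and 5 against 2, 3 and 3 at P6. The best peak of Sag ranked at 1.28 to 2.36% of kept peaks in the P6 endothelial libraries, at 1.44 and 1.73% in inputs 1 and 3, and at 67.6% in the library labelled P6 retina input 2. Opn1sw, the short-wavelength cone pigment, had no kept peak in any adult library and 1 in each P6 library except that one. Of 12 cone genes, 10 had a peak in adult endothelial libraries and 9 and 10 in the inputs. At P6 11 had one in every library except the library labelled P6 retina input 2, with 7. Endothelial libraries of other organs had a peak at a mean of 5.4 cone genes at adult and 6.64 at P6. No share of all genes is given here either.

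By region, 131 adult regions lay within 5 kb of a rod list gene, of which 101 (77.1%) were shared, 3 (2.29%) endothelial-only and 0 input-only, against 66.5, 3.47 and 2.24% of all regions. At P6 137 of 195 (70.3%) were shared, 15 (7.69%) endothelial-only and 5 (2.56%) input-only, against 48.1, 10.0 and 7.96% of all regions. With the library labelled P6 retina input 2 left out, 126 of 179 (70.4%) were shared, 26 (14.5%) endothelial-only and 3 (1.68%) input-only, against 54.0, 15.5 and 6.66%. The endothelial-only share around rod genes was below that of all regions each time, and the shared one above it. This was not particular to rod genes. Around ubiquitous control genes 96.4% of adult and 81.8% of P6 regions were shared, and 0 and 2.27% endothelial-only. Without the library labelled P6 retina input 2 the P6 shares there were 85.7 and 2.38%. Regions near genes are set here against all regions, many of which lie farther from genes. Around the 28 endothelial genes the adult split was 22 (23.9%) shared, 25 (27.2%) endothelial-only and 0 input-only of 92 regions. For starts, all 20 rod genes in the promoter table had theirs in a region found in every adult library. The same held for 48.8% of all genes of the table and for 10 of 10 ubiquitous control genes, so all members of both lists had one. At P6 all 20 were shared, against 62.6% of all genes, with 4 of them found in every library, or 18 without the library labelled P6 retina input 2, against 57.8% and 59.5% of all genes.

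Endothelial-only regions nearest to rod genes were also counted by gene, with no test. At adult 4 of 28 rod genes (14.3%) had one, Crx, Rp1 and Abca4 among them, and 0 an input-only region, against 5.86% and 4.30% of all genes. At P6 11 (39.3%) had an endothelial-only and 3 (10.7%) an input-only region, against 29.2% and 25.8%. The numbers without the library labelled P6 retina input 2 were 12 (42.9%) and 2 (7.14%), against 32.8% and 20.1%. Rp1, an axoneme protein, and Abca4, a retinoid transporter, were among those with one at both ages. Without adult endothelial 1, endothelial 2 or input 1 the adult count was 7, 7 and 8, while the share of all genes was 11.9, 16.1 and 9.19%, and 2 genes had one by the nearest start in the promoter table. Without P6 endothelial 1 or 3 the P6 count was 6 and 5, against 25.1 and 25.2% of all genes, so the share of rod genes was above that of all genes with all libraries and below it here. Rod genes also had more regions each, with a mean of 3.46 shared regions against 1.40 over all genes at adult.

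The lists of inner retinal neurons, glia and progenitors had more genes with an input-only than with an endothelial-only region at P6 with all libraries and without the library labelled P6 retina input 2, but in some of them not when another input was left out. Over all genes the P6 shares were 29.2% and 25.8% for endothelial-only and input-only regions, or 32.8% and 20.1% without that library. Of 16 amacrine and horizontal genes, 4 had an endothelial-only and 12 an input-only region at P6, or 5 and 11 without the library labelled P6 retina input 2, with a median difference of −1 per gene. Of 13 progenitor genes 3 had an endothelial-only and 9 an input-only region, with or without that library, and a median of −1. Of 16 bipolar genes the numbers were 6 and 9, or 7 and 8 without that library, and of 14 ganglion cell genes 5 and 8, or 6 and 8. Of 14 Müller glia genes they were 6 and 11, or 6 and 8, and of 7 astrocyte genes 2 and 5, or 3 and 5. Without P6 input 1 the bipolar list had 8 genes with an endothelial-only and 2 with an input-only region, and without input 3 it had 6 and 3. The Müller glia list had 7 and 4 without input 1 and 7 and 6 without input 3, the amacrine and horizontal list 4 and 5 and 6 and 7, the ganglion cell list 5 and 4 both times, the progenitor list 4 and 3 and 5 and 6, and the astrocyte list 2 and 3 and 3 and 3. The order thus turned in the bipolar, Müller glia and ganglion cell lists without either of these inputs, and in the progenitor list without input 1. Over all genes the shares with an endothelial-only and an input-only region were then 31.8% and 12.8% without input 1 and 32.7% and 14.3% without input 3, so input-only regions were fewer across all genes as well.

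At adult, where 5.86% of all genes had an endothelial-only and 4.30% an input-only region, the counts in these lists were small. The amacrine and horizontal list had 0 genes with an endothelial-only and 2 with an input-only region, the bipolar list 1 and 3, the ganglion cell list 1 and 1, the progenitor list 1 and 2, the Müller glia list 4 and 2 and the astrocyte list 1 and 0. In the Müller glia list these are 28.6% and 14.3%, and input-only regions reached 18.8% of the bipolar, 15.4% of the progenitor and 12.5% of the amacrine and horizontal genes, shares above those of all genes. With 1 adult library left out in turn the input-only counts were 3 to 5 in the Müller glia and progenitor lists and 4 to 7 in the bipolar and the amacrine and horizontal lists, while the share of all genes was 6.35 to 14.8%. Genes with input-only regions at both ages included Trpm1, the channel of ON bipolar cells, Lhx4 and Grik1, a factor and a glutamate receptor of bipolar cells, Lhx1 and Prox1, factors of horizontal cells, Thy1 of ganglion cells, Gpr37 of the Müller glia list, and Sox2 of progenitors. The endothelial and vessel type lists had 1 each, Ets1 and Cxcr4, and the microglia list Sall1. The same genes were found without the library labelled P6 retina input 2, against 602 (2.75%) of all genes, or 517 (2.36%) without it. Trpm1 had an adult input-only region at its start, chr7:64153628-64153991, and Prox1 one at P6 at a start, chr1:190168840-190169560, in all 3 inputs.

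Pax6 and Rlbp1 served as markers of inner retina and glia by library. Pax6, a factor of progenitors and amacrine cells, had 1 and 2 peaks in adult endothelial libraries against 3 and 2, and at P6 5, 7 and 4 against 11, 6 and 7. Rlbp1, of Müller glia, had 3 peaks in every adult library and 4, 3 and 4 against 5, 3 and 4 at P6. Their sides overlapped at both ages. Endothelial-only regions at both ages also lay nearest to Otx2 of the bipolar list, a factor shared with photoreceptors, to Rbpms of ganglion cells, to Glul, Sox9 and Hes1 of Müller glia and to Gja1 of astrocytes. The Otx2 region was chr14:48629439-48629717 at adult and chr14:48629410-48629753 at P6. At P6 Otx2 had 1 endothelial-only and 2 input-only regions and Sox9 4 and 8, with or without the library labelled P6 retina input 2. Glul had 2 and 1, Hes1 6 and 5, Rbpms 9 and 0 and Gja1 11 and 0. Without that library these were 3 and 1, 7 and 4, 12 and 0 and 15 and 0.

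Other cells that lie on or near vessels were looked at in the same way. At adult, where 5.86% of all genes had an endothelial-only and 4.30% an input-only region, 0 of 14 mural cell genes had either. At P6 9 (64.3%) had an endothelial-only and 4 (28.6%) an input-only region, or 10 and 3 without the library labelled P6 retina input 2, against 29.2% and 25.8% of all genes, or 32.8% and 20.1%. Kept peaks at mural genes numbered 9 and 11 in adult endothelial libraries and 15 and 11 in the inputs. At P6 they numbered 45, 41 and 42 in endothelial libraries and 31, 38 and 33 in inputs 1 to 3, so every P6 endothelial library was above every input in this count. By rank the order was the reverse. The median rank of the best peak at these genes was 40.7 to 54.5% in P6 endothelial libraries and 22.7 to 34.3% in the inputs, so the endothelial ones were weaker. Pdgfrb, the pericyte receptor of PDGF-B, had 0 and 2 against 2 and 2 at adult and 8, 6 and 7 against 5, 5 and 7 at P6. Of 16 microglia genes 0 and 1 had an endothelial-only or input-only region at adult and 4 and 5 at P6, or 6 and 4. In lists this short the adult counts of 0 and 1 lie near the share of all genes. Cx3cr1, the fractalkine receptor of microglia, had 0 and 1 against 1 and 1 at adult and 2, 2 and 1 against 1, 3 and 1 at P6. At most 1 erythroid gene had such a region at any age, and Actb, a gene of every cell, had 1 peak in all 10 libraries.

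The genes nearest to most regions of 1 side were named by count. In the adult endothelial-only set they were Ets1 with 6, Gmds, Adgrl4, Plekhg1 and Hs1bp3 with 5 and Ly86, Sema6a, Palmd, Zfp462 and Mrtfb with 4. In the adult input-only set they were Kcnma1, a potassium channel, and Col22a1 with 5, and Myo10, Map3k7, Tpbg, Dusp4, Pcdh9, Dlg2, Nbea and Rps24 with 3. Of these adult genes only Ets1 and Adgrl4, an adhesion receptor of endothelium, are also in the endothelial list.

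At P6 the endothelial-only set was led by Magi1, a junction scaffold, with 25, then Adgrl2, Foxp1 and Stard13 with 22, Myc and Arhgef28 with 20, Auts2 with 19 and Sema6d, Tcf4 and Mecom with 18. Without the library labelled P6 retina input 2, Foxp1 and Adgrl2 had 28, Magi1 27, Stard13 26, Tcf4 25 and Myc and Ets1 24. The P6 input-only set was led by Tenm2, a synaptic adhesion protein, with 21, Zfp608 with 20, Robo2, an axon guidance receptor, and Auts2 with 18, Celf4, Tenm4 and Tafa5 with 17 and Rbfox1, Slc10a2 and Grik3 with 16. Without that library Zfp608 had 19 and Tenm2 16. Many of these genes are long or stand alone, and Auts2 is in both P6 sets, and gene length was not corrected for.

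The regions with the best mean rank were named next. At adult the 5 best endothelial-only regions were nearest to Baalc, Tcte2, Klf2, Trp53i11 and Arl4a. The third, chr8:72295390-72296195, lay between genes 23.3 kb from Klf2, a transcription factor that flow induces in endothelium. The best input-only regions were nearest to Igbp1b, Sh3tc2, Stk39, Lgals9 and Ceacam15. At P6 the best endothelial-only regions were nearest to Enpp6, Rnf152, Elavl2, Trpc6 and Bche, and without the library labelled P6 retina input 2 they included regions nearest to Cd93, Rbfox1, Mvb12b and Abcc6. Cd93 encodes a receptor of endothelial and myeloid cells. The best P6 input-only regions were nearest to Nedd1, Gm46900, Kcnj10, Lrrc4 and Cdon. Kcnj10, the potassium channel of Müller glia and astrocytes, is in the Müller glia list, and the region lay inside the gene. The regions nearest to Gm46900, Kcnj10 and Lrrc4 were each held by the library labelled P6 retina input 2 and only 1 other input. Without that library Kcnj10 had 0 input-only regions. With it left out the best input-only regions were nearest to Sstr2, Nedd1, Unc5d, Cdon and Ppp3ca.

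Libraries of other organs, which the calls did not use, were then searched for the retina regions, each library giving its 19464 strongest peaks at adult or 27160 at P6. Of the adult endothelial-only regions, 54.5 ± 9.18% held a peak in the endothelial libraries of other organs (SD, n = 10, range 42.1 to 70.6%) and 23.8 ± 10.7% in their inputs (n = 8, range 10.5 to 38.4%). The difference averaged over organs was 30.8 percentage points and positive in 5 of 5 organs (exact 2-sided permutation within organ, p = 0.000514, adjusted over 4 comparisons 0.000686). Brain endothelium held the most, 69.2%, against 10.5% in brain input, which at adult was 1 library. With every deposited peak of those organs the difference was 12.1 points and not past the threshold (p = 0.0684, exact permutation). Leaving out adult endothelial 1 or adult input 2 gave 15.1 and 18.0 points (p = 0.000514 each, exact permutation).

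At P6 28.3 ± 6.65% of endothelial-only regions held a peak in endothelial libraries of other organs (SD, n = 11, range 10.8 to 33.5%) and 5.32 ± 4.82% in their inputs (n = 13, range 0.0265 to 13.7%). The lowest endothelial value, 10.8%, was P6 brain endothelial 2, below the 3 lung inputs at 12.9 to 13.7%, while the other brain endothelial libraries were at 29.5 and 32.3%. The difference was 23.5 points, in 5 of 5 organs (exact permutation, p = 1.39e-05, adjusted 2.8e-05). Without the library labelled P6 retina input 2 the shares were 32.5 ± 5.85% and 8.16 ± 5.84% and the difference 24.8 points (p = 1.39e-05, exact permutation), with P6 brain endothelial 2 at 18.8%. Leaving that brain library out gave 24.9 points with all retina libraries and 25.97 without the library labelled P6 retina input 2 (p = 2.78e-05 each, exact permutation). In no endothelial library of another organ did more than 33.5% of them hold a peak, or 38.4% without that library. The P6 regions come from 79426 kept peaks per retina library and were sought in 27160 per other library. These shares therefore cannot show how many of the regions are closed in other endothelium. In brain input 0.223% of them had a peak, or 2.20% without that library.

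Among the top peaks of other organs, input-only regions of retina were rare and leaned to the inputs of those organs. At adult 2.98 ± 2.00% held a peak in endothelial libraries and 4.48 ± 3.30% in inputs, a difference of −2.26 points that was negative in 5 of 5 organs (exact permutation, p = 0.0036). At P6 the shares were 1.61 and 4.63% and the difference −3.02 (p = 1.39e-05, exact permutation), or −2.13 without the library labelled P6 retina input 2, −4.83 without input 1 and −5.38 without input 3. It was −3.30 without P6 brain endothelial 2 (p = 5.56e-05, exact permutation). Brain input held the most, 12.4% at adult, in its 1 library, and 10.3% at P6, or 6.58% without the library labelled P6 retina input 2. The adult call was lost without adult endothelial 1 (−1.49, p = 0.0653, exact permutation) or adult input 2 (−0.772, p = 0.126).

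**Figure D5:**
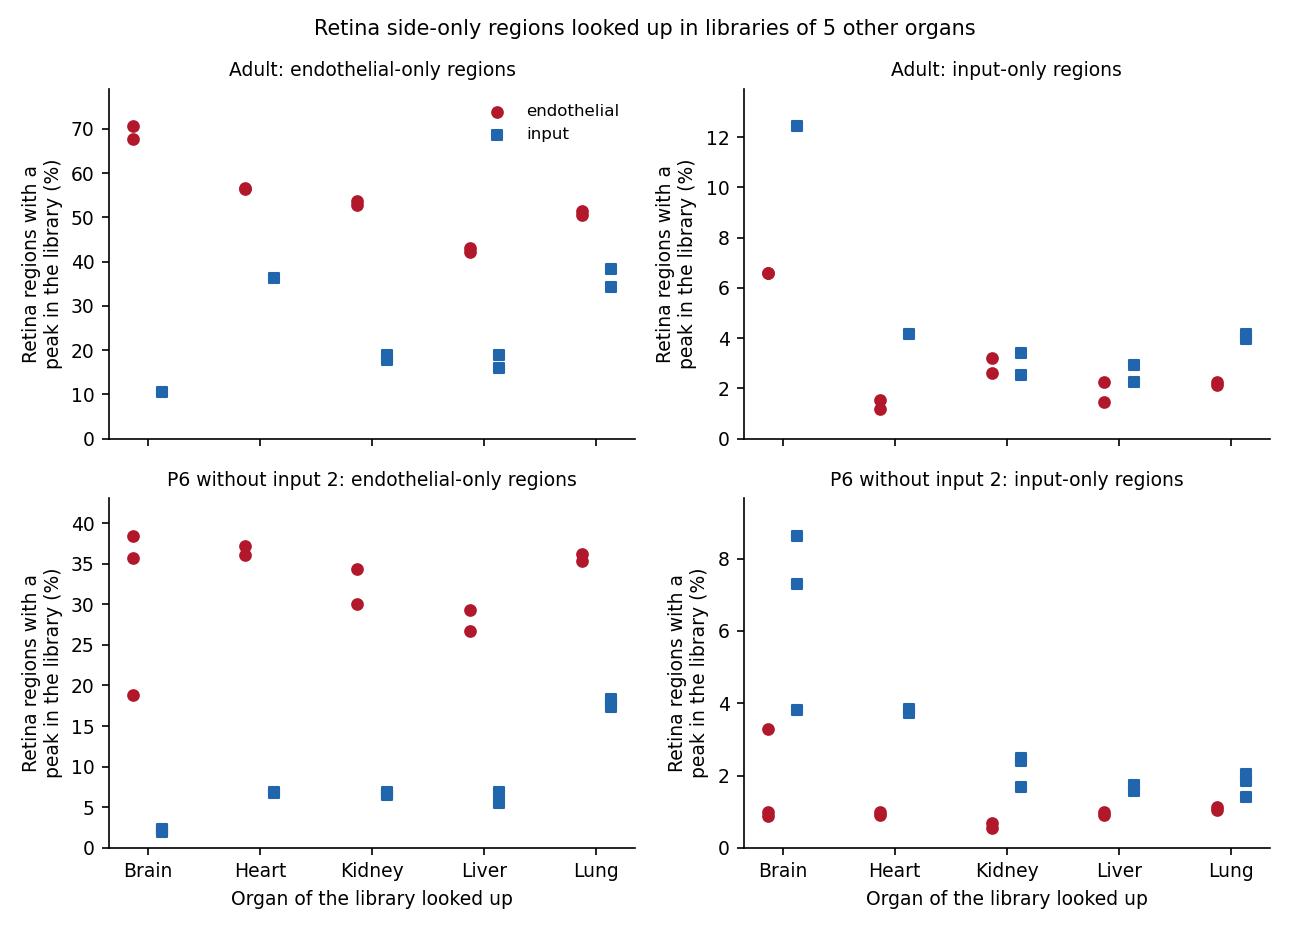
Percent of retina endothelial-only (left) and input-only (right) regions that held a top peak in each library of 5 other organs (x axis), at adult (top) and at P6 without the library labelled retina input 2 (bottom); each point is 1 library. On the left the endothelial libraries (red circles) average 54.5% and 32.5% against 23.8% and 8.16% for inputs (blue squares).

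Most adult endothelial-only regions also held a kept peak in P6 endothelial libraries, whose lists were longer, 79426 peaks against 32560. Adult input-only regions did so at 79.7 to 82.6%. In the P6 endothelial libraries 93.0, 93.4 and 94.4% of the adult endothelial-only regions held a kept peak, and in the P6 inputs 46.7, 70.1 and 47.2%, the middle value being the library labelled P6 retina input 2. The difference of 38.9 points had the smallest p that 3 against 3 allows (exact 2-sided permutation, p = 0.1), and without that library it was 46.6 (p = 0.1, exact permutation). It was 21.9, 27.2 and 24.5 points without adult endothelial 1, input 1 and input 2 in turn. Regions of the same class at both ages numbered 277, which is 17.3% of the adult and 1.83% of the P6 endothelial-only regions. With the library labelled P6 retina input 2 left out they numbered 678, or 42.5% and 3.53%. Of the adult endothelial-only regions 78.1% were shared at P6, or 53.0% without that library.

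The reverse search gave less. Of the P6 endothelial-only regions 12.5% held a kept peak in adult endothelial 1, 4.00% in endothelial 2 and 2.39 and 2.23% in the adult inputs (exact 2-sided permutation, p = 0.333, the smallest 2 against 2 allows). Adult endothelial 2 lay nearer to the inputs here too, and the difference of 5.93 points was 1.69 without endothelial 1 and 10.2 without endothelial 2. Without the library labelled P6 retina input 2 the shares were 16.4, 5.49, 2.15 and 2.00%. The difference was then 8.88 points (p = 0.333, exact permutation). Of the adult input-only regions 79.7, 82.4 and 82.6% held a peak in P6 endothelial libraries and 82.6, 48.3 and 78.7% in the P6 inputs. That difference of 11.7 points did not pass (p = 0.400, exact permutation) and was 0.906 without the library labelled P6 retina input 2 (p = 0.700). Only 19 regions were input-only at both ages, or 14 without it.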

How the data were processed

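The deposited files are MACS2 2.1.2 broad peak lists, 1 per library. Per the file headers, the authors called them with no control, a shift of −100 and an extension of 200 bases, q thresholds of 0.05 and 0.1 and 1 tag per position. Each peak carries a −log10 p, a −log10 q and a fold enrichment, which is a ratio, all as deposited by the authors. Per the submitters' processing notes the build is mm10 and the tools include Bowtie2, SAMtools 1.13 and Picard; trimming and filters are not given in the sources used here. The lists hold no read counts per region, so no count model was run.

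With Python 3.11.15, pandas 2.3.3, numpy 2.4.6 and scipy 1.17.1, each library kept the same number of top peaks by −log10 q within an age, and touching peaks were merged. Regions were assigned to the nearer boundary, start or end, of 21887 protein-coding RefSeq gene models of GRCm38.p6. The plan had named the nearest start, but the promoter table holds starts for 17492 of them, so that assignment became an alternative. In counts of promoters, genes with the same start on the same strand counted once, which left 17470 genes and 21238 promoters. Tests were exact permutations of side within age or organ. The region classification was run on simulated lists whose side-only regions had a peak in every library of the side. All simulated peaks were kept, so that run did not cover the cut to equal numbers or lists of unequal length. The members and the 16 gene lists (254 entries) were chosen with earlier results of these data known. Named genes are, per age and side, the 10 with most regions, those nearest the 5 best-ranked regions, list genes found on 1 side at both ages and 20 fixed markers. No genome was used, so motifs were sought in promoters only. Some single genes the rule names are not reported here.

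Replicate numbers come from the titles. Same-numbered endothelial and input libraries deviated together at correlations between −0.0134 and 0.0186, and differently numbered ones between −0.0274 and 0.0167. With 2 libraries a side, the adult correlations can only mirror each other. Such values cannot tell whether same-numbered libraries come from the same animals. The main tests did not pair them. Between replicates at most 0.05% of peaks were identical.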

Additional observations from a re-analysis of the deposited data

How the results depend on the processing

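Of 158 values of the main results recomputed with 1 library left out, 137 kept their direction and side of the threshold, or for counts stayed within 1.5 times, as did 47 of 67 under other alternatives. Each count was judged by itself, so a turn in the order of endothelial-only and input-only regions was not scored. That order turned at P6 whichever endothelial library was left out, as given above, while each count stayed within 1.5 times. Some of the 158 could hardly change. Those for regions carried across ages could change only in direction, since their smallest possible p was 0.1 or more. All 28 rod genes had a peak in every retina endothelial library, so leaving 1 out could not move that mean. The values that did change are given here, and their causes were not tested. With every deposited peak there were 2703 adult endothelial-only regions, the difference in peaks at gene starts was 1.26 points (p = 0.8, exact permutation) and that of adult endothelial-only regions in other organs was 12.1 (p = 0.0684, exact permutation). With the top 20000 peaks there were 484 endothelial-only and 509 input-only regions at adult and 2930 and 2288 at P6, and P6 endothelial libraries had peaks at a mean of 27.7 rod genes. A −log10 q of at least 5 left 583 and 625 at adult and 8578 endothelial-only at P6. A peak in every library of the side left 2527 P6 input-only regions. Ranked by fold, the difference at gene starts was 1.24 points (p = 0.317, exact permutation).

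With regions assigned to the nearest known start, an alternative chosen after seeing the data, 14 endothelial and 2 rod genes had an adult and 15 endothelial genes a P6 endothelial-only region, and within 5 kb 8 barrier genes had an adult one. No share of all genes stands beside these counts, so they are given as counts only and cannot be read as above or below it. Peaks within 1 kb of a start were found at 20.0 rod genes, all those with a known start, at both ages. Leaving out 1 library in turn gave 2528 to 6061 endothelial-only and 1580 to 4389 input-only regions at adult and 4030 to 14407 input-only regions at P6. It gave 0.0172 to 0.0881 for the similarity of libraries, 0.373 to 0.649 points for peaks at gene starts, −19986 to 4885 for peaks called and −2.52 to −0.772 points for adult input-only regions in other organs. Genes with an endothelial-only region ranged from 13 to 21 of 23 in the barrier list and 4 to 8 of 28 in the rod list at adult, and 5 to 15 of 28 in the rod list at P6. The share of all genes then ranged from 9.19 to 16.1% at adult and from 25.1 to 32.8% at P6. With a replicate block over same-numbered pairs the difference at gene starts was 0.511 (p = 0.0625, the smallest that 5 pairs allow by exact sign-flip permutation), the similarity 0.0631 (p = 0.125) and the difference in peaks called −7551 (p = 0.562).

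The kept lists reach −log10 q of 1.00 in adult input 1 and P6 input 3, so a region absent there is absent from the whole deposited list, while in the other libraries weaker deposited peaks were left out.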
